A study of Homo sapiens with 8 samples.

Results

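The response of DCIS.COM cells to *MALINC1* overexpression was examined in 4 of the 8 RNA-seq libraries of the study, 2 of cells stably transduced with the *MALINC1* expression vector (pLOC-*MALINC1*) and 2 of cells with the vector alone (pLOC-empty), over all 13842 genes of the deposited table. The other 4 libraries are of MCF10A, a non-tumorigenic breast epithelial line, with the same pair of vectors, and serve here for the shared estimate of the spread and as a comparison. DCIS.COM is an HRAS-transformed derivative of the MCF10A lineage that forms comedo-type ductal carcinoma in situ lesions in mice. Both DCIS.COM groups were kept in DMEM/F-12 with horse serum and were selected with blasticidin, and RNA was taken from plates that were not yet confluent. Whether the transduced cells were pooled or clonal, and whether the paired libraries came from separate cultures, is not given in the sources used here, so the p-values measure the spread between these libraries, which may be technical. With a single transduced population for each vector, an effect of *MALINC1* and a difference between the selected populations cannot be told apart.

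*MALINC1* is a long non-coding RNA named for its association with mitosis. Breast epithelium of basal type carries a keratin cytoskeleton, desmosomes and a laminin-anchored contact with the basement membrane, and it can take on features of stratified, cornifying epithelium, in which small proline-rich (SPRR) proteins are crosslinked under the membrane and kallikrein-related peptidases cut the contacts between cells. The same cells also secrete innate defense proteins, many of them driven by interleukin-1 and NF-kB, and AP-1 dimers of JUN and FOS family members act on both kinds of gene.

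Levels are given as CPM, the reads of a gene scaled to the library size after TMM normalization and derived from the deposited log2 CPM, in the order pLOC-empty 1 and 2, then pLOC-*MALINC1* 1 and 2, and include the small prior count of the authors, so a gene without reads stands at 0.0713 CPM. Fold changes are log2 differences, pLOC-*MALINC1* minus pLOC-empty, tested with limma with Benjamini-Hochberg adjustment over all genes. A gene that changed more than 2-fold with an adjusted p below 0.01 was called a DEG. A group in which no library exceeded 3 reads was taken as at the floor. There a fold is given as a nominal limit, with that group set to 3 reads in each library. Reads on genes numbered 21532423 and 20604377 in the pLOC-empty libraries and 31906390 and 30563046 in the pLOC-*MALINC1* libraries, so depth differed between the groups. Markers of both basal and luminal breast epithelium were present. Of 16 basal and myoepithelial markers 14 were in the table, at a summed 6168 and 6312 CPM against 6888 and 7069 CPM. At any fold, 4 of them had an adjusted p below 0.01 upward and 6 downward. Of 18 luminal markers 11 were in it, at 5073 and 5074 CPM against 5649 and 5726 CPM, with 5 up and none down. Means in pLOC-empty and pLOC-*MALINC1* were 1069 and 1388 CPM for the basal *KRT5* and 56.7 and 49.6 CPM for *TP63*. The epithelial cadherin *CDH1* was at 215 and 325 CPM and *VIM* at 580 and 396 CPM. Both pLOC-empty libraries stood apart from all other libraries in ribosomal RNA, at 8262 and 7708 CPM against 205 to 378 CPM in the other 6. Of 16 leukocyte markers 4 were in the table, and their summed level was 6.07 and 7.06 CPM against 10.3 and 10.0 CPM; of 16 fibroblast and endothelial markers 3 were in it, at 12.9 and 14.6 CPM against 2.43 and 2.61 CPM.

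*MALINC1* itself was at 1.42 and 1.22 CPM in pLOC-empty and at 24.5 and 19.2 CPM in pLOC-*MALINC1* (log2 fold change 4.04, SE 0.189, adjusted p = 6.93e-09 by limma). The gene lies on the minus strand of chromosome 5 (GRCh37, chr5:139450897-139488859), where *PURA*, a nucleic acid-binding protein gene on the opposite strand, overlaps it. *PURA* stood at 16.6 and 16.5 CPM against 18.8 and 18.0 CPM and did not pass the test (adjusted p = 0.0866). In bulk libraries such as these, fewer cells of a type and less RNA per cell cannot be told apart.

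Among the 627 DEGs, 4.53% of the genes tested, 200 were higher (1.44%) and 427 lower (3.08%). With the DCIS.COM libraries fitted alone, 156 were higher and 373 lower. Falls exceeded rises more as the change grew: 150 genes against 29 passed 4-fold and 88 against 4 passed 8-fold. The falls past 8-fold include all 24 tested entries of ribosomal RNA genes and *MT-RNR2*-like copies (log2 fold change -3.25 or lower). Most of these entries are copies of one another and not separate measurements. At any fold, 33.2% of all genes had an adjusted p below 0.01, with 2275 up and 2317 down, so the asymmetry was in the size of the changes. The counts of the gene lists below are to be read against these shares of all genes. Of the DEGs, 268 were under 5 CPM in both groups and 47 reached 100 CPM, 15 of them higher and 32 lower. By gene type, 553 were protein coding, 22 lncRNAs, 16 rRNAs and 5 snoRNAs, and 27 had no matched position. Those typed as protein coding include *MT-RNR2*-like copies such as *MTRNR2L1*, which RefSeq labels a pseudogene. The pLOC-empty libraries overlapped with the pLOC-*MALINC1* libraries in none of the 627, but 73.1% of all genes also had groups that did not overlap.

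**Figure D1:**
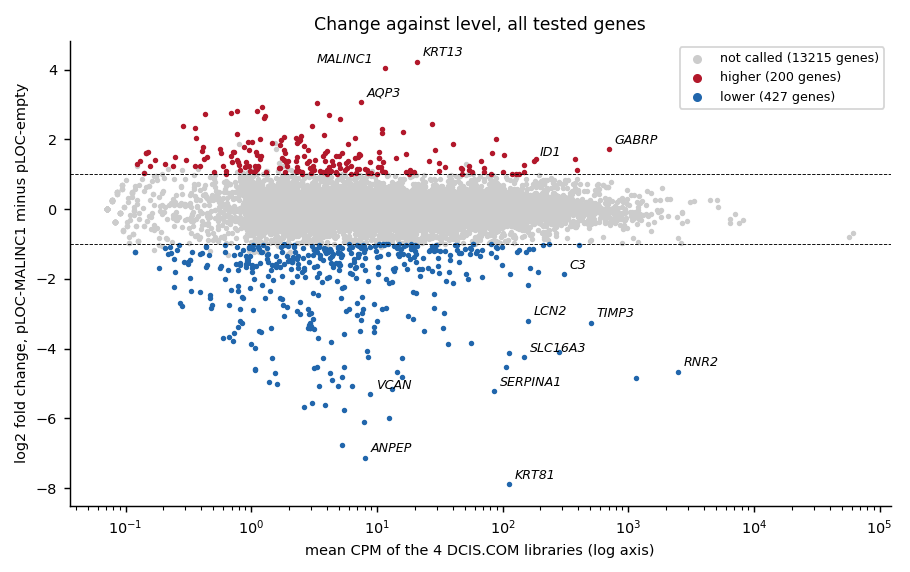
Log2 fold change, pLOC-*MALINC1* minus pLOC-empty, in DCIS.COM cells (y axis) against the mean level in CPM (x axis, log scale), 1 point per gene, with the 200 higher and 427 lower genes coloured. The falls reach farther from 0 than the rises, down to -7.89 for *KRT81*.

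Keratin genes changed in both directions. *KRT13* and *KRT4*, the keratin pair of wet stratified epithelia such as the oral and esophageal lining, both rose. *KRT13* was at 2.22 and 2.03 CPM against 37.6 and 41.7 CPM, and its partner *KRT4* at 0.631 and 0.835 CPM against 5.98 and 6.01 CPM (log2 fold change 3.05, adjusted p = 6.83e-08). In contrast, 4 hair-type keratins that follow each other on chromosome 12 (GRCh37, chr12:52643084-52761265) all fell. *KRT81* was at 226 CPM in both pLOC-empty libraries and at 0.974 and 0.928 CPM in pLOC-*MALINC1*, and *KRT86* at 11.5 and 13.2 CPM against 0.392 and 0.337 CPM. *KRT83*, at 2.64 and 3.32 CPM in pLOC-empty, and *KRT85*, at 0.211 and 0.358 CPM, were at the floor in pLOC-*MALINC1*. Their nominal limits were 33-fold and 2.42-fold lower, but *KRT85* had only 3 and 6 reads in pLOC-empty. The annotated *KRT86* spans *KRT81* on the opposite strand and 32.8% of the 76-base stretches of *KRT81* also occur in *KRT86*, so reads of this pair may have been divided arbitrarily. Over both keratin lists, 3 of 16 tested basal and stratified keratins were higher and 4 of 7 simple and hair-type keratins were lower, with 6 up and 3 down and with 1 up and 4 down at any fold, while the abundant basal keratins *KRT5* (log2 fold change 0.38) and *KRT14* (-0.59) changed by less than 2-fold.

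Many cornification genes rose. Of 25 tested genes of the cornified envelope and keratinocyte differentiation, 8 were DEGs and all were higher, and at any fold 14 passed upward and 2 downward. The median of the list in log2 fold change was 0.75, against 0.0089 over all genes. Its summed level moved less, from 478 and 493 CPM to 556 and 554 CPM. *FLG*, which encodes filaggrin, was at 0.911 and 1.46 CPM against 3.51 and 4.59 CPM, and *GRHL3*, a transcription factor of the epidermal barrier, at 2.78 and 2.36 CPM against 8.02 and 6.75 CPM. In MCF10A *GRHL3* was also higher (log2 fold change 1.43), whereas *FLG* did not pass (0.37). *IVL*, the envelope precursor involucrin, stood at 4.55 and 4.61 CPM against 7.32 and 8.11 CPM, a change under 2-fold that passed the test (log2 fold change 0.75). *PADI3*, a peptidylarginine deiminase that modifies filaggrin and hair proteins, was far more abundant, at 31.6 and 39.8 CPM against 139 and 148 CPM. Desmosome genes moved less, with 7 of 12 up and 1 down at any fold and none over 2-fold, including *DSP*, which encodes desmoplakin, at 252 and 267 CPM against 376 and 419 CPM.

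The *SPRR* genes of the epidermal differentiation complex on chromosome 1 formed a pair of runs of neighbouring higher genes, *SPRR1A*, *SPRR3* and *SPRR1B* (GRCh37, chr1:152956557-153005376) and *SPRR2A*, *SPRR2B* and *SPRR2E* (chr1:153028596-153078660). *SPRR1A* was at 0.957 and 0.835 CPM against 3.30 and 4.06 CPM, *SPRR1B* at 3.99 and 3.08 CPM against 7.21 and 8.08 CPM, and *SPRR2A* at 2.59 and 2.65 CPM against 5.46 and 5.39 CPM. The levels of these 3 genes were low. *SPRR3*, *SPRR2B* and *SPRR2E* were below 2 CPM in every library and each lost the call without pLOC-*MALINC1* replicate 1 (log2 fold changes 1.19, 0.92 and 0.91) and without 1 of the pLOC-empty libraries (0.99, 1.06 and 0.78). *SPRR1B* fell under 2-fold without pLOC-empty replicate 2 (0.94). Of the 76-base stretches of *SPRR2A*, 23.1% also occur in *SPRR2B* and 15.9% in *SPRR2E*, so the division of reads among them is uncertain. A seventh tested member, *SPRR2D*, stood at 4.08 and 3.13 CPM against 5.93 and 5.84 CPM and passed the test at less than 2-fold. In MCF10A *SPRR1A* (log2 fold change 1.55) and *SPRR1B* (2.28) were higher too, and *SPRR2A* passed under 2-fold (0.96). There *SPRR2B* (0.85), *SPRR2E* (0.40) and *SPRR3* (-0.59) did not pass.

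Because AP-1 sites are a known feature of SPRR promoters, the 250 bases before each start were read from RefSeq (GRCh38.p14) and searched on both strands for TGANTCA, the AP-1 motif with any base in the middle. The promoter table held 5 of the 7 tested *SPRR* genes, and 4 of these had a match, which is in capitals below; *SPRR2B* had none. The match began 108 bases before the start in *SPRR1A* (chr1:152983831-152984080, plus strand), 170 in *SPRR3* (chr1:153001499-153001748, plus strand) and 197 in *SPRR2A* (chr1:153057513-153057762, minus strand), and *SPRR1B* (chr1:153030953-153031202, plus strand) had a pair of matches, at 141 and 111.
SPRR1A: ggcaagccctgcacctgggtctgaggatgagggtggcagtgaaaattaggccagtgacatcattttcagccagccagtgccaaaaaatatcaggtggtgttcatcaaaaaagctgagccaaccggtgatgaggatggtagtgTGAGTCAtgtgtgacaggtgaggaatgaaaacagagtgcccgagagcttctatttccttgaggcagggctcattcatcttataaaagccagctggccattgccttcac
SPRR3: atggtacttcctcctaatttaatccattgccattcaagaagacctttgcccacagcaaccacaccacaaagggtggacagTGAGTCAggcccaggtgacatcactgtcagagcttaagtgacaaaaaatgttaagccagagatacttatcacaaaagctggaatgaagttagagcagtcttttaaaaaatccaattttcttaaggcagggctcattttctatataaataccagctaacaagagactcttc
SPRR1B: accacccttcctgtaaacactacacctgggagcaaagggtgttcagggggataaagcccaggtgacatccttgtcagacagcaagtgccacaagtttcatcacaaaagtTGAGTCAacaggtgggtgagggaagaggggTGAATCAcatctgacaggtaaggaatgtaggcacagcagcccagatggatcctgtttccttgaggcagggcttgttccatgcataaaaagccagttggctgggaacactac
SPRR2A: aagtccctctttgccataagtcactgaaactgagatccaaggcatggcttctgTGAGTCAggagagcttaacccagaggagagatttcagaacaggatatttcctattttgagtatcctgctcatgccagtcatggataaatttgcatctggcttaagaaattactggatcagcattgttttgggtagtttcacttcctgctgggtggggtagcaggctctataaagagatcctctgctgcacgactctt
This motif was held by 6.6% of all promoters listed (1801 of 27305), 4.11% of those of tested genes, 10% of those of the higher genes (16 of 160) and 8.93% of those of the lower genes (25 of 280). The 16 include the 4 *SPRR* genes with a match, so the share of the higher genes is not independent of that family. A 10-base NF-kB motif, searched in the same way, was in 6.55% of the promoters of tested genes, 5% of those of higher genes and 6.43% of those of lower genes. These matches are a description of the letters in the window and not of binding.

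Within the AP-1 family some members rose slightly and others fell by much more. *JUN* was at 9.03 and 7.95 CPM against 12.1 and 13.4 CPM (log2 fold change 0.59, adjusted p = 2.13e-05), *JUNB* at 42.2 and 42.6 CPM against 55.1 and 54.1 CPM, and *FOSL1* at 9.68 and 8.62 CPM against 14.1 and 12.4 CPM, each a passing change under 2-fold. *FOS* stood at 2.26 and 2.51 CPM against 2.11 and 1.90 CPM and did not pass (adjusted p = 0.152). *FOSL2*, the most abundant FOS family gene among these, fell from 66.3 and 65.8 CPM to 14.6 and 15.7 CPM. Among 17 tested AP-1 subunits the DEGs were *FOSL2*, *MAFF* (21.2 and 21.2 CPM against 6.51 and 5.89 CPM) and *MAF*, all lower, with 3 members up at any fold. The call of *MAF* (log2 fold change -1.04) was lost without pLOC-empty replicate 2 or either pLOC-*MALINC1* library (adjusted p = 0.0101 to 0.0134 by limma). In MCF10A *JUN* went the other way (log2 fold change -0.91) and *FOS* (1.63) and *FOSL1* (1.76) were higher, and for these 3 genes the difference between the lines passed the thresholds. That difference did so for 1273 genes (9.2%), 429 of them DCIS.COM DEGs, and 66 genes were DEGs of the same direction in both lines.

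Among kallikrein-related peptidases, serine proteases that shed cornified cells, *KLK5* and *KLK6* rose. Of 7 tested genes of the family and its inhibitors 5 passed the thresholds upward and none downward, including the 4 neighbours *KLK5* to *KLK8* on chromosome 19 (GRCh37, chr19:51446559-51505967), but 3 of the 5 had almost no reads. *KLK5* was at 95.1 and 102 CPM against 259 and 281 CPM (log2 fold change 1.45, adjusted p = 5.9e-10 by limma) and *KLK6* at 4.27 and 5.70 CPM against 11.9 and 13.5 CPM. *KLK7*, *KLK8* and the inhibitor *SPINK6* had no more than 3 reads in each pLOC-empty library, which leaves lower limits of 1.14, 0.726 and 1.04 for the fold, so a rise over 2-fold was not shown for them, nor any rise for *KLK8*, and *SPINK6* also lost the call without replicate 2 of either group (log2 fold changes 1.03 and 0.87). In MCF10A *KLK5* changed in the opposite direction (log2 fold change -0.75), and the difference between the lines passed the thresholds.

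**Figure D2:**
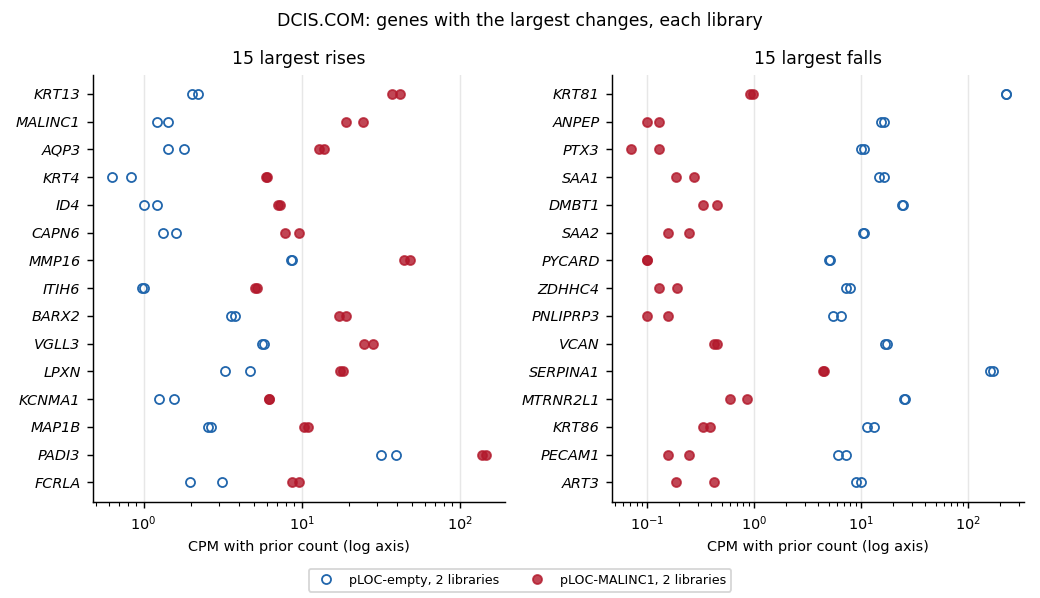
Level in CPM (x axis, log scale) of the 15 largest rises and the 15 largest falls among DEGs of at least 5 CPM in the higher group, with 1 point for each of the 4 DCIS.COM libraries. The genes were chosen for the size of their change, so the groups stand apart by the choice. Of all genes, 73.1% also had groups that did not overlap. *KRT81*, at 226 CPM in pLOC-empty, spans the widest distance.

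Further higher genes had other roles. *AQP3*, a water and glycerol channel of keratinocytes, was at 1.42 and 1.79 CPM against 13.9 and 12.9 CPM. *MMP16*, a membrane-bound metalloproteinase, was at 8.51 and 8.66 CPM against 44.5 and 48.6 CPM, and *ITGB8*, an integrin subunit that binds latent TGF-beta, at 245 and 251 CPM against 529 and 542 CPM. *BARX2*, a homeobox transcription factor, was at 3.8 and 3.6 CPM against 19.0 and 17.3 CPM and *VGLL3*, a TEAD partner, was at 5.62 and 5.75 CPM against 24.7 and 28.4 CPM. *GABRP*, a GABA receptor subunit found in basal-like breast tumors, was among the abundant ones, at 314 and 344 CPM against 1038 and 1126 CPM. Of 8 tested carcinoembryonic antigen and mucin genes 3 were higher, of which *CEACAM6* went from 8.33 and 8.85 CPM to 25.2 and 26.1 CPM, while *MUC16* reached only 1.18 and 1.19 CPM.

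The inhibitor of differentiation genes and an inhibitory SMAD, which are classical BMP targets, rose together. *ID1* was at 98.5 and 99.3 CPM against 251 and 261 CPM (log2 fold change 1.37, adjusted p = 1.31e-10), *ID3* at 41.9 and 40.2 CPM against 119 and 132 CPM (1.61, adjusted p = 3.68e-10) and *ID4* at 1 and 1.22 CPM against 7.27 and 7.08 CPM (2.70, adjusted p = 2.06e-07). *SMAD6* was at 6.09 and 4.94 CPM against 14.8 and 15.6 CPM, whereas *ID2* (adjusted p = 0.116) and *SMAD7* (adjusted p = 0.214) did not pass. In MCF10A the same 4 genes changed in the opposite direction, with log2 fold changes of -0.68, -0.86, -0.71 and -1.68 for *ID1*, *ID3*, *ID4* and *SMAD6*, and the difference between the lines passed the thresholds for each. Among 42 tested genes of TGF-beta, activin and BMP signaling these 4 were higher and 4 were lower, with a median near that of all genes (-0.04). The lower ones were the ligand *TGFB2*, at 29.3 and 31.7 CPM against 0.916 and 1.28 CPM, *TGFBI*, a matrix protein induced by TGF-beta, at 45.0 and 44.4 CPM against 15.8 and 18.0 CPM, *LTBP2* and *GDF15*.

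**Figure D3:**
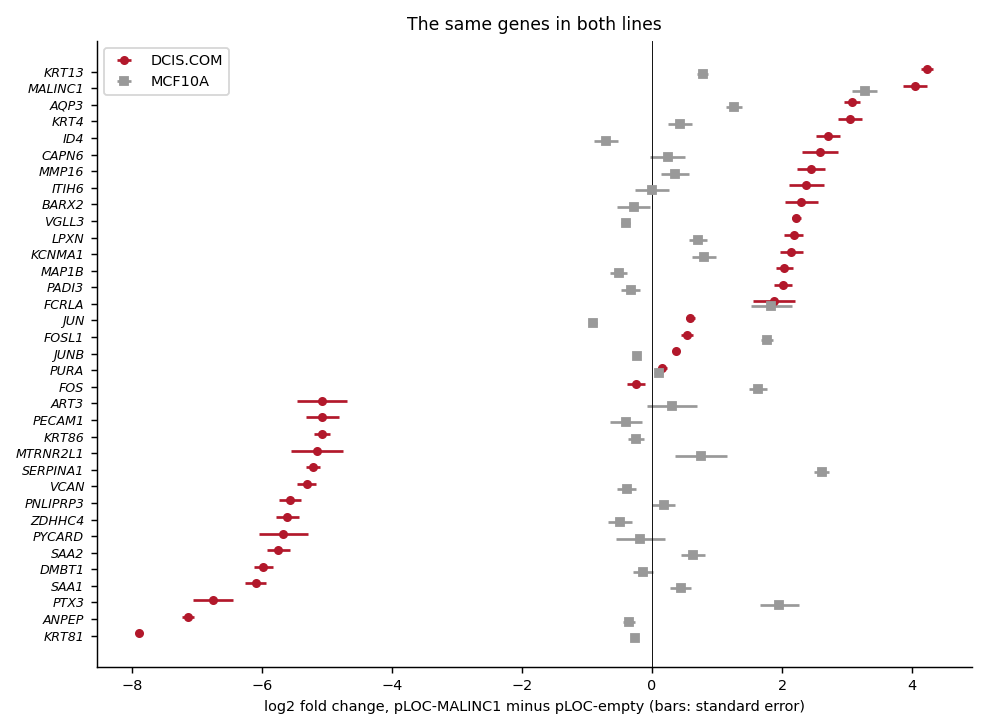
Log2 fold change, pLOC-*MALINC1* minus pLOC-empty (x axis, with SE bars), in DCIS.COM and in MCF10A for *MALINC1*, *PURA*, 4 AP-1 genes and the 15 largest rises and falls in DCIS.COM. For most of the large changes in DCIS.COM the MCF10A value is near 0 or of the other sign, such as *SERPINA1* at -5.21 and 2.61, but *CAPN6*, *ITIH6*, *BARX2*, *ART3* and *PYCARD* had almost no reads in MCF10A.

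Many secreted defense and acute phase genes fell. Of 14 tested genes 7 were lower and none higher, with a median log2 fold change of -1.42, and 11 passed the test downward at any fold. The summed level of the list was 997 and 981 CPM in pLOC-empty and 273 and 270 CPM in pLOC-*MALINC1*. *SAA1* and *SAA2*, serum amyloid A genes, were at 16.6 and 14.7 CPM and at 10.8 and 10.5 CPM, against values below 0.3 CPM in both pLOC-*MALINC1* libraries; 24.9% of the stretches of *SAA1* also occur in *SAA2*. *LCN2*, the siderophore-binding lipocalin, was at 294 and 282 CPM against 32.5 and 30.3 CPM. *C3*, the central component of complement, was at 487 and 484 CPM against 137 and 130 CPM. *PTX3*, a pentraxin, was at the floor in pLOC-*MALINC1* and at least 117-fold lower. Outside this list *SERPINA1*, the acute phase antiprotease, fell from 162 and 171 CPM to 4.47 and 4.51 CPM (log2 fold change -5.21, adjusted p = 7.8e-12), and *DMBT1*, a secreted scavenger receptor, from 24.1 and 25.0 CPM to 0.333 and 0.456 CPM.

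Interleukin-1 genes, known inducers of such proteins, were also lower. *IL1B* was at 12.9 and 13.1 CPM against 2.46 and 2.14 CPM and *IL1A* at 20.7 and 19.5 CPM against 4.91 and 4.42 CPM. Of 33 tested interleukins and receptors 7 were lower and none higher, with 16 down and 4 up at any fold. Among the lower ones was *CSF1*, the macrophage growth factor, at 15.8 and 16.2 CPM against 4.44 and 4.36 CPM. *LIF*, an IL-6 family cytokine, passed the test at less than 2-fold (log2 fold change -0.89). The neutrophil chemokines *CXCL8*, at 132 and 109 CPM against 134 and 124 CPM, and *CXCL1* (adjusted p = 0.015) did not pass, and 2 of 10 tested chemokines, *CCL20* and *CXCL3*, were lower. Of 19 NF-kB subunits and inhibitors 9 passed downward and none upward, with *BIRC3*, an NF-kB target that inhibits cell death, at 42.5 CPM in both pLOC-empty libraries against 12.9 and 11.8 CPM, and *TNIP1* lower over 2-fold. *PYCARD*, the inflammasome adaptor, was at 5.2 and 5.04 CPM in pLOC-empty and at the floor in pLOC-*MALINC1*, at least 57.3-fold lower. Interferon-stimulated genes had 6 of 41 lower, such as *IFI44L* and *IFIT1*, and 1 higher, *EPSTI1*. At any fold, 7 passed upward and 13 downward. The fold limit of *EPSTI1* was 1.97. Its call was lost without either pLOC-*MALINC1* library or pLOC-empty replicate 1 (log2 fold changes 0.69 to 1.66). Among the lower ones, *IFITM1* (log2 fold change -1.02) lost the call whichever DCIS.COM library was left out. *IFI27* was low throughout, at 0.584 and 0.74 CPM against 0.159 and 0.278 CPM. In MCF10A *IFI44L* was lower too (log2 fold change -2.47). Antigen presentation genes had no DEG among 22, with 8 down and 1 up at any fold. Over all genes, 4.53% were DEGs and 33.2% passed at any fold, in either direction.

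A run of 4 neighbours on chromosome 19 (GRCh37, chr19:6531037-6730573) that holds *TNFSF9*, *CD70* and *TNFSF14*, all TNF family ligands, and *C3* was lower throughout. *CD70* was at 7.44 and 6.66 CPM against 0.479 and 0.278 CPM, with log2 fold changes of -1.51 for *TNFSF9* and -2.26 for *TNFSF14*. On chromosome 11 (chr11:63304280-63384355) the phospholipase and acyltransferase genes *PLAAT4*, *PLAAT2* and *PLAAT3* were lower, of which *PLAAT3* was at 24.7 and 24.2 CPM against 7.99 and 8.61 CPM. *PLAAT4* fell under 2-fold without pLOC-empty replicate 2 (log2 fold change -0.95), and *PLAAT2* lost the call without either pLOC-*MALINC1* library or pLOC-empty replicate 1 (-1.25 to -0.72). Eicosanoid genes included *PTGES*, the inducible prostaglandin E synthase, at 32.0 and 33.3 CPM against 6.28 and 6.19 CPM. The receptor *PTGER4* was the higher one, with a log2 fold change of 1.39, and 3 of 17 genes of this list were lower.

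Extracellular matrix and cell surface genes changed in both directions, and the median log2 fold changes of the matrix, proteinase, integrin and EMT lists lay between -0.21 and 0.02. Of 21 tested collagens 1 was higher, *COL9A3*, at 53.2 and 52.2 CPM against 150 and 157 CPM, and 1 lower, *COL6A1*, with 5 up and 6 down at any fold. Of 31 laminins and matrix glycoproteins 3 were lower, of 24 proteoglycan genes 3 were lower and *ACAN* higher, and of 17 integrin subunits 3 were lower and *ITGB8* higher. *ACAN* was at the floor in pLOC-empty and at only 0.625 and 0.84 CPM in pLOC-*MALINC1*, with a nominal limit of 4.67-fold. *TIMP3*, a matrix-bound metalloproteinase inhibitor, was at 888 and 934 CPM against 97.6 and 92.5 CPM (log2 fold change -3.26, adjusted p = 7.53e-14). The metalloproteinase *ADAM8* was at 29.9 and 30.6 CPM against 1.5 and 1.64 CPM, and of 25 tested metalloproteinases and inhibitors 5 were lower and *MMP16* alone was higher. *VCAN*, the proteoglycan versican, fell from 17 and 17.6 CPM to 0.421 and 0.456 CPM, and *FBLN1*, fibulin 1, from 60.7 and 63.0 CPM to 5.49 and 6.31 CPM. *THBS1*, thrombospondin 1, had a large difference in absolute level, at 3663 and 3372 CPM against 1728 and 1831 CPM, with a log2 fold change of -0.98. *LAMA3*, an alpha chain of the laminin of epithelial basement membranes, was at 311 CPM in both pLOC-empty libraries and at 150 and 161 CPM in pLOC-*MALINC1*, a change just over 2-fold that was -0.95 on the log2 scale without pLOC-*MALINC1* replicate 1. Of 26 tested cadherins and EMT regulators 3 were lower and none higher, with 5 up and 7 down at any fold and a median of 0.00. The lower ones were *SNAI2*, which fell under 2-fold without pLOC-*MALINC1* replicate 1 (-0.95), *S100A4* at 47.5 and 48.3 CPM against 8.58 and 9.09 CPM, and the receptor tyrosine kinase *AXL* at 57.9 and 56.3 CPM against 13.2 and 14.4 CPM. *PECAM1*, an endothelial adhesion molecule, was at 6.13 and 7.28 CPM against 0.159 and 0.249 CPM, and *ANPEP*, aminopeptidase N, was at the floor and at least 181-fold lower.

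**Figure D4:**
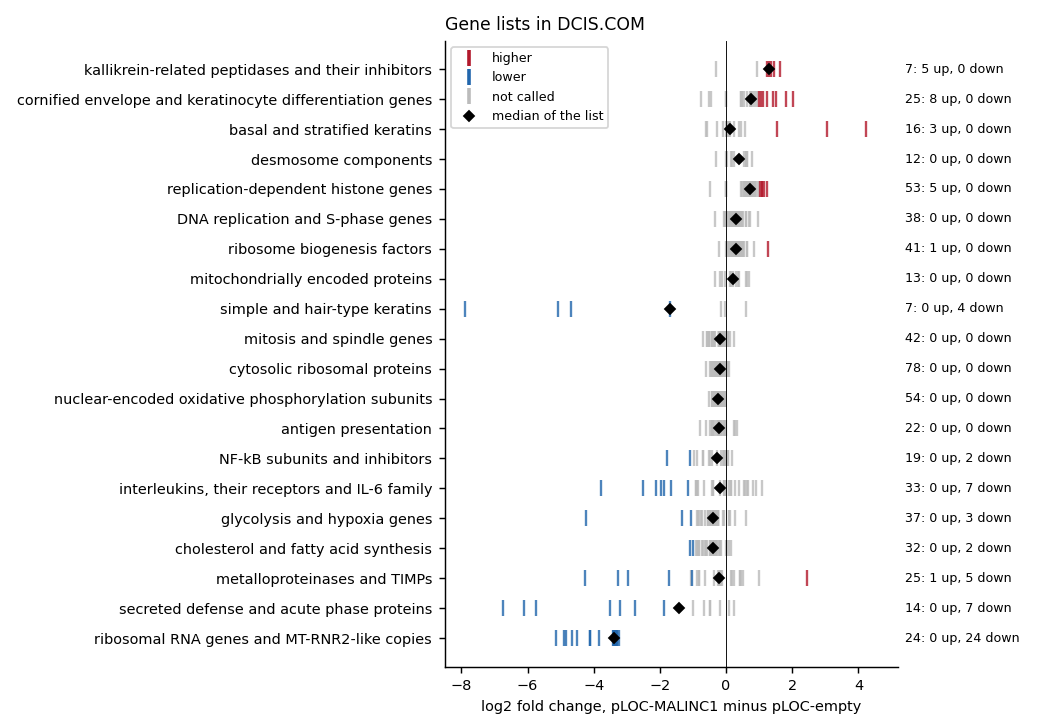
Log2 fold change, pLOC-*MALINC1* minus pLOC-empty, in DCIS.COM cells (x axis) for the tested genes of 20 lists, with 1 tick per gene and a diamond at the list's median. Secreted defense genes lie mostly below 0 and histone, kallikrein and cornification genes mostly above.

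Many metabolic genes fell, mostly by less than 2-fold. Of 37 tested glycolysis and hypoxia genes 29 passed the test downward and 1 upward, with a median log2 fold change of -0.39 that ranged from -0.39 to -0.31 over the alternatives. Their summed level was 26299 and 26503 CPM against 19878 and 20203 CPM. The lactate exporter *SLC16A3* stood out, at 284 and 281 CPM against 14.3 and 15.5 CPM (log2 fold change -4.24, adjusted p = 2.25e-15), while *LDHA* (-0.63), *PGK1* (-0.45) and *GAPDH* (-0.39) changed by less than 2-fold. Cholesterol and fatty acid synthesis behaved alike, with 25 of 32 down and 1 up and a median of -0.40, and *HMGCS1*, the enzyme before HMG-CoA reductase, at 106 and 113 CPM against 51.7 and 57.2 CPM. Its log2 fold change, -1.01, was under 2-fold without pLOC-*MALINC1* replicate 1 (-0.93) or pLOC-empty replicate 2 (-0.96). Of 54 nuclear-encoded oxidative phosphorylation subunits 39 passed downward and none upward (median -0.24), and none changed over 2-fold. In each of these lists the share that passed downward was above the share of all genes that passed in either direction, 33.2%.

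Replication-dependent histone genes were higher in 49 of 53 tested at any fold and lower in none, with a median log2 fold change of 0.74 (0.71 to 0.78 over the alternatives). Their summed level was 7060 and 6840 CPM against 11511 and 11911 CPM. Of these, 5 passed 2-fold, such as *H2BC14* at 31.4 and 27.7 CPM against 65.6 and 66.1 CPM and the linker histone *H1-1* at 99.7 and 91.2 CPM against 202 and 199 CPM. Histone mRNAs of this kind are made in S phase and mostly lack a poly(A) tail. DNA replication genes moved the same way at smaller size, with 25 of 38 up and 1 down and a median of 0.31, although *PCNA* (adjusted p = 0.478) did not pass. Mitosis and spindle genes had 22 of 42 down and 1 up, with a median of -0.19 and *CCNB1* at 291 and 290 CPM against 176 and 181 CPM. No gene of either list passed 2-fold.

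Ribosomal RNA was the group in which the pLOC-empty libraries of DCIS.COM stood apart from all other libraries. The list of ribosomal RNA genes and *MT-RNR2*-like copies had 24 tested entries, all lower in pLOC-*MALINC1*, but most are copies of one another and not separate measurements. The summed level was 8262 and 7708 CPM in pLOC-empty and 283 and 378 CPM in pLOC-*MALINC1*, whereas it was 233 and 205 CPM in MCF10A with pLOC-empty and 290 and 212 CPM in MCF10A with pLOC-*MALINC1*. *RNR2* and *RNR1*, the large and small mitochondrial rRNAs, carried most of it, at 5019 and 4571 CPM against 159 and 226 CPM and at 2273 and 2154 CPM against 68.1 and 88.2 CPM. The 13 mitochondrially encoded mRNAs, encoded on the same circular genome as the mitochondrial rRNAs, had no DEG, with summed levels of 1032 and 958 CPM against 2127 and 1030 CPM, where pLOC-*MALINC1* library 1 stood apart. Ribosome biogenesis factors were slightly higher, 31 of 41 up and 1 down at a median of 0.30, led by *UTP20*, a factor of the small subunit processome, at 87.7 and 86.3 CPM against 204 and 216 CPM. Cytosolic ribosomal protein genes were slightly lower, 49 of 78 down and none up at a median of -0.17, without a DEG. The share of reads on the signal recognition particle RNAs *RN7SL1* and *RN7SL2* was also higher in pLOC-empty, at 15.7% and 14% against 11.5% and 8.22%. How ribosomal RNA was removed is not given in the sources used here. Leaving the ribosomal RNA genes out of the fit gave 200 higher and 403 lower genes. The CPM of the other genes were kept, so the smaller count only reflects the removal of the 24 entries. Whether the ribosomal RNA affected other genes was not tested. Leaving *RN7SL1* and *RN7SL2* out of the library total gave 222 higher and 400 lower genes.

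**Figure D5:**
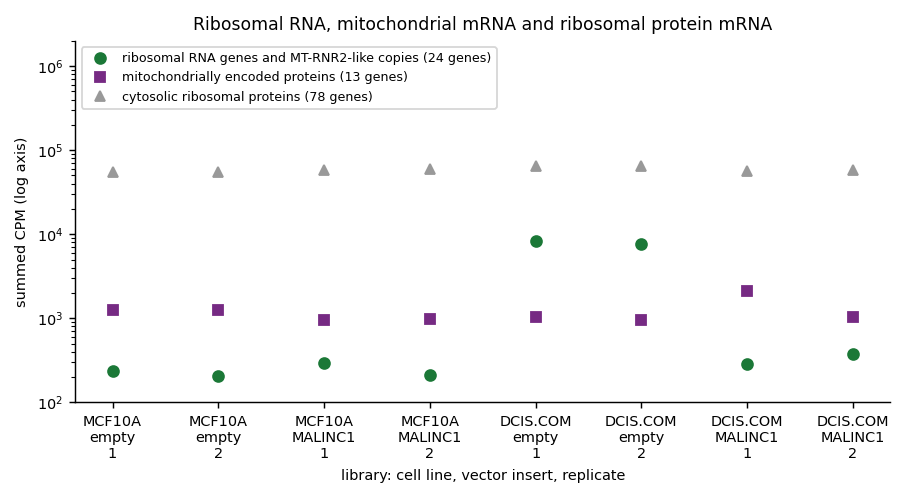
Summed level in CPM of the ribosomal RNA genes, of the mitochondrially encoded mRNAs and of the cytosolic ribosomal protein genes, with 1 point for each of the 8 libraries. The DCIS.COM pLOC-empty libraries, at 8262 and 7708 CPM of ribosomal RNA, are far above the other 6, which lie between 205 and 378 CPM.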

How the data were processed

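RNA-seq of DCIS.COM and MCF10A cells with pLOC-empty or pLOC-*MALINC1*, 2 libraries in each of 4 groups, was analysed from the deposited table. The authors made ScriptSeq v2 libraries, sequenced 76 nt paired-end reads, aligned them to hg19 with Rsubread, counted UCSC genes with featureCounts and normalized with edgeR. The deposited unit is log2 CPM per gene, scaled by the authors with TMM and with a prior count of 2. Tool versions, the strand setting, ribosomal RNA removal and the filter on low values are not given in the sources used here. Whole reads were recovered from the log2 CPM for 100% of values checked (tolerance 0.05), which gave 20604377 to 31906390 reads on genes in the DCIS.COM libraries. Fold limits cover counting error only.

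A linear model with 4 group means over the 8 libraries was fitted to these values by limma (3.58.1, R 4.3.3), using a variance trend in eBayes and Benjamini-Hochberg adjustment, and the difference between the lines by the interaction contrast. The log2 scale with its prior count understates changes of low genes. The filter, 0.5 CPM in at least 2 libraries, removed none of the 13842 genes. Standard errors had a median of 0.073 over all genes and 0.20 over DEGs. The recovered reads were tested with limma's voom as an alternative, which called 634 genes. Other alternatives changed the pseudocount, filter, scaling, model, replicate block and thresholds, and left out each DCIS.COM library. The members and gene lists were chosen with earlier results of these data known. The lists of ribosomal RNA genes, mitochondrially encoded proteins and ribosome biogenesis factors were added after values had been seen, as was the alternative without ribosomal RNA genes. Named genes were *MALINC1*, *PURA* and 4 AP-1 genes, the 15 largest rises and falls of at least 5 CPM, the 10 largest differences in level at an adjusted p below 0.01, up to 6 DEGs of each list (or its 2 most abundant genes where it had none) and runs of 3 or more neighbouring DEGs of 1 direction. Other genes named were chosen after their values were seen. Some items under this rule are not reported here. The fit was tested on simulated data. Replicate numbers were not used as pairs in the main fit, and whether they pair the libraries is not known. Positions are those of GRCh37, to which 95.2% of genes were matched by Ensembl identifier, or by symbol where that gave no position. Promoters are those of RefSeq on GRCh38.p14. Tables used pandas 2.3.3 and numpy 2.4.6, and plots matplotlib 3.10.9, in Python 3.11.15.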

Additional observations from a re-analysis of the deposited data

Results flagged for a closer look

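For 31 of the genes named among the AP-1 genes and the 15 largest rises and falls, the response in DCIS.COM differed from that in MCF10A by an interaction contrast in limma at an adjusted p below 0.01 and over 2-fold. Over all genes, 9.2% did so. The rises and falls were chosen for their size in DCIS.COM, which this contrast uses again. A difference was therefore likely from the choice alone, and their number is a description. The values in brackets are the log2 fold change in DCIS.COM minus that in MCF10A. Among the AP-1 genes they were *JUN* (1.5), *FOS* (-1.88) and *FOSL1* (-1.23). Among the keratins they were *KRT13* (3.45), *KRT4* (2.62), *KRT81* (-7.64) and *KRT86* (-4.83). Of membrane, matrix and other proteins that rose in DCIS.COM the values were *AQP3* (1.81), *MMP16* (2.09), *CAPN6* (2.34), *ITIH6* (2.37), *LPXN* (1.47), *KCNMA1* (1.34), *MAP1B* (2.55) and *PADI3* (2.34), and of regulators of transcription *BARX2* (2.58), *VGLL3* (2.63) and *ID4* (3.41). Defense and inflammation genes had *SAA1* (-6.54), *SAA2* (-6.37), *PTX3* (-8.71), *SERPINA1* (-7.82), *DMBT1* (-5.83) and *PYCARD* (-5.49), and the other falls *ANPEP* (-6.77), *VCAN* (-4.91), *PECAM1* (-4.67), *ART3* (-5.38), *ZDHHC4* (-5.12), *PNLIPRP3* (-5.74) and *MTRNR2L1* (-5.91). *CAPN6*, *ITIH6*, *BARX2*, *ART3* and *PYCARD* averaged at most 0.106 CPM in both MCF10A groups, with almost no reads, so their change in MCF10A could not be measured and the difference rests on DCIS.COM. The lines also differ in their growth medium, which for MCF10A held epidermal growth factor, hydrocortisone, insulin and cholera toxin in addition, and medium and line cannot be told apart. Groups of 2 libraries are too small to look for single libraries far from the rest.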

How the results depend on the processing

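With a pseudocount of 1 CPM in place of the authors' prior count, 100 genes were higher and 268 lower, and 366 of these 368 were among the 627 DEGs; this setting lowers the change of low genes by construction. Every other alternative kept the numbers of higher and lower genes and of genes that differed between the lines within 1.5 times. Leaving out each DCIS.COM library in turn gave 150 to 198 higher genes, 374 to 404 lower genes, 1123 to 1208 genes that differed between the lines and a *MALINC1* log2 fold change of 3.87 to 4.22, where the lone library of a group was assumed to vary like the other groups. The DEGs called under all 17 alternatives, apart from the later one without ribosomal RNA genes, numbered 301. Of the checks of a single named gene under an alternative, 224 lost the call, 9 gained it and 3150 stayed on their side of the thresholds. The 3150 include named genes that were not DEGs. The filter settings left the 627 calls as they were, and the looser p threshold could not lose a call. No named gene that was called reversed its direction. Quantile normalization raised the share of higher genes from 31.9% to 40.3%, and scaling moved the median of all genes by at most 0.0344.

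With the replicate number as a block in the fit, 203 genes were higher and 426 lower, 616 of them among the 627. Deviations of libraries with the same number correlated at 0.0354 in DCIS.COM and at -0.0666 in MCF10A. With only a pair of libraries in each group, this cannot decide whether the numbers pair the libraries. Without the ribosomal RNA genes, a setting chosen after seeing the data, 200 genes were higher and 403 lower. The CPM of the other genes were kept, so this setting could not show whether the ribosomal RNA affected them. Among the DEGs, 18 had only pLOC-empty, 33 only pLOC-*MALINC1* and 2 both groups at the floor, where depth limits the size of the change.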
